A study of Mus musculus with 10 samples.

Results

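Immediate early genes are genes whose transcription is known to start within minutes of a stimulus. The set examined here, called early genes below, holds 10 immediate early and AP-1 genes: Fos, Fosb, Jun, Junb, Jund, Egr1, Ier2, Atf3, Dusp1 and Btg2. They were picked by name and found by Ensembl ID among the 55414 gene IDs of each count file. All 10 were present, and 9 passed the low-count filter that left 18005 genes for testing; Fosb did not. RNA was sequenced from whole trigeminal ganglia, the sensory ganglia of the head, taken from C57Bl6 mouse embryos at stage E13.5. One group of 5 libraries was Prdm12-/- (knockouts 16, 29, 42, 49 and 50) and the other 5 were Prdm12+/+ (wild types 22, 24, 32, 35 and 45). Both groups carried the label Sox10 Venus+, so the reporter was shared by all 10 libraries. The labels name neither a cell sort nor the part of Prdm12 that was deleted, and nothing in them says whether the libraries of a genotype came from different embryos. The p-values therefore measure the spread between these libraries, which may be technical. Titles hold F_Ko in the knockouts and K_WT_Venus_plus in the wild types, and whatever this wording stands for cannot be told apart from genotype.

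Fos and Jun family proteins pair through leucine zippers to form AP-1, a dimer that binds DNA at the TGACTCA element or, with ATF partners, at the related cyclic AMP response element (CRE). In neurons these genes are best known as readouts of calcium entry, growth factor signalling and axon damage, and several of them, Jun in particular, are also expressed during development. Their transcripts are short-lived, and levels are known to respond to dissection and dissociation as well as to signals in the living tissue. Prdm12 is a transcriptional regulator needed for the nociceptor lineage.

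Prdm12 itself was measured first, as a check of the labels. Its level in the knockouts was 8.74, 42.7, 10.1, 12.2 and 17.0 CPM (counts scaled to a common library size with TMM factors, in the order of libraries given above), and in the wild types 148, 178, 246, 264 and 74.3 CPM. No knockout reached the lowest wild type, and knockout 29 had the highest value of its group. Total counts were 3258008 in knockout 49, 13603690 in knockout 29 and between 27308327 and 33556002 in the other 8, so 3 counts, used here as the floor, equal 0.869 CPM for knockout 49 and 0.236 CPM for knockout 29, with 0.0889 to 0.107 CPM elsewhere. Knockout 29 and wild-type 24 stood apart from their groups: sample quality weights estimated over all tested genes were 0.211 and 0.191 for them and between 0.771 and 2.54 for the other 8. Knockout 29 also departed from its group according to GC content. Across 17947 genes, its log2 deviation from the knockout mean had r = 0.535 with transcript GC content, against 0.133 in wild-type 24 and -0.24 to 0.016 in the other 8 libraries.

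In the comparison of genotypes, no early gene passed the threshold: 0 of the 9 tested had an adjusted p under 0.05 in edgeR's quasi-likelihood test, where 0.467% of all tested genes were called in either direction and 0.0944% as higher in the knockout. At an unadjusted p under 0.05 there were 2 of 9, Jun and Egr1, both with higher means in the knockout, against 13.1% of all tested genes in either direction and 6.4% in that direction. Jun and Egr1 were also the 2 of 9 whose knockout libraries all lay above every wild-type library, which 1.29% of all tested genes did. DESeq2 called 1 of the 9, Jun, and limma voom with quality weights called 3, Jun, Egr1 and Atf3, while these tools called 3.47% and 13.0% of all genes. The fitted log2 fold change, knockout over wild type, was above 0 for 9 of 9, with a median of 0.64; over all tested genes 46.3% were above 0 and the median was -0.03. Without knockout 29 the median was 0.21 and 7 of 9 were above 0. Means below are given ± SD with n = 5 libraries in each genotype. In bulk libraries such as these, fewer cells of a type and less RNA per cell cannot be told apart.

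**Figure D1:**
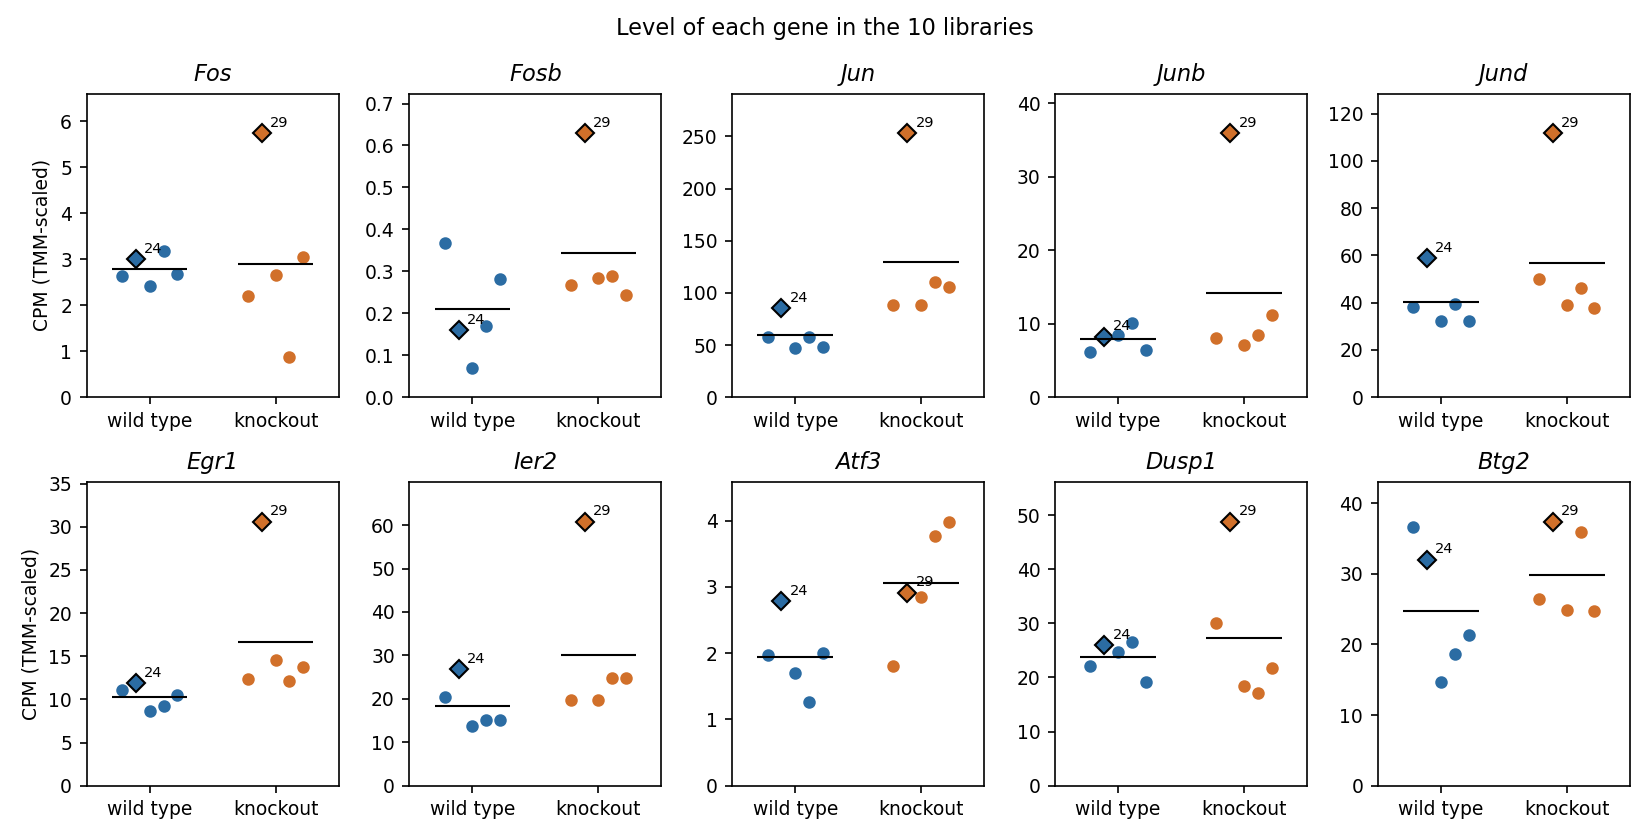
CPM of each of the 10 genes (vertical axis, linear, TMM-scaled) in 5 wild-type (blue) and 5 knockout (orange) libraries, with a line at each group mean and diamonds for wild-type 24 and knockout 29. Knockout 29 is the highest point in every panel except Atf3. The groups are separate for Jun and Egr1. For Jun the other knockouts span 88.4 to 110.03 CPM and the wild types 46.8 to 85.1 CPM. For Egr1 these ranges are 12.2 to 14.5 and 8.70 to 11.9 CPM.

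Jun (ENSMUSG00000052684) encodes the AP-1 subunit c-Jun, and it had the lowest p of the 9 tested. Its level was 88.6, 253, 88.4, 110.03 and 105 CPM in knockouts 16, 29, 42, 49 and 50. In wild types 22, 24, 32, 35 and 45 it was 58.2, 85.1, 46.8, 57.4 and 48.5 CPM. The groups did not overlap, although wild-type 24 lay close under the lowest knockout, and knockout 29 was 2.58 times the mean of the other knockouts. The knockout mean was 129 ± 70.0 CPM and the wild-type mean 59.2 ± 15.4 CPM. In edgeR the log2 fold change came to 1.12 (SE 0.30, 95% interval 0.46 to 1.79, adjusted p = 0.154). The 4 other knockouts had a mean of 98.1 ± 11.2 CPM. Leaving out the highest knockout cannot make separate groups overlap, so their place above all 5 wild types is no check on knockout 29. Without knockout 29 the log2 fold change was 0.76, with an adjusted p of 0.116 in edgeR. With wild-type 24 left out instead, the log2 fold change was 1.34 (edgeR adjusted p = 0.0934), and with both libraries out, a pair chosen after seeing the data, it was 0.95 and passed the threshold (edgeR adjusted p = 0.0133). That fit called 1.24% of all its genes, against 0.467% with all libraries.

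Promoter sequence is shown for 6 of the early genes, because such genes are known for response elements just before the start. Whether these elements have a part in the levels measured here was not tested. The stretches are the 250 bases before the annotated start, 5′ to 3′, from the RefSeq table of build GRCm38.p6, which held 8 of the 10 genes; Egr1 and Ier2 were not matched. Capitals mark matches, on either strand, to TGACGTCA (the CRE), TGACG (its first part, so each CRE holds it on both strands), TGACATCA (the AP-1-like element of Jun), TATAAA and the MEF2 site.
Jun, chr4:95052223-95052472, minus strand: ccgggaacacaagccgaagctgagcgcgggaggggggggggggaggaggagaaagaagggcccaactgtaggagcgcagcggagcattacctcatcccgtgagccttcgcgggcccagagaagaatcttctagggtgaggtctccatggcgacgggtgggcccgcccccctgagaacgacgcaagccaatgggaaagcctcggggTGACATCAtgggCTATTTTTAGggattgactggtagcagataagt
Fos, chr12:85473640-85473889, plus strand: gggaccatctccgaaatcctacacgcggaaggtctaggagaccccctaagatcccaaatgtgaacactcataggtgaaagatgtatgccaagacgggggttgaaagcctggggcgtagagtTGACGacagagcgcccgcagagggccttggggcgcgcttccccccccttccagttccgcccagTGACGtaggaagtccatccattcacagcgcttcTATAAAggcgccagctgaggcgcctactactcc
Junb, chr8:84978749-84978998, minus strand: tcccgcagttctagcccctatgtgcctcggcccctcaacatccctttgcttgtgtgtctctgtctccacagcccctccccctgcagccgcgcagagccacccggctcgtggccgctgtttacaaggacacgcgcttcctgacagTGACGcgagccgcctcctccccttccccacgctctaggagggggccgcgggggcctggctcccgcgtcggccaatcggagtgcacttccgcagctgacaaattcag
Atf3, chr1:191183334-191183583, minus strand: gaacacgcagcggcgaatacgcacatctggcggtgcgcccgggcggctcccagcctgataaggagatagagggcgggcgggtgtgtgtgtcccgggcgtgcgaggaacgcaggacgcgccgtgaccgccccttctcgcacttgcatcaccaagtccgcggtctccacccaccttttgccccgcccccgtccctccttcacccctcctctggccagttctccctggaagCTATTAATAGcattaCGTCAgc
Dusp1, chr17:26508473-26508722, minus strand: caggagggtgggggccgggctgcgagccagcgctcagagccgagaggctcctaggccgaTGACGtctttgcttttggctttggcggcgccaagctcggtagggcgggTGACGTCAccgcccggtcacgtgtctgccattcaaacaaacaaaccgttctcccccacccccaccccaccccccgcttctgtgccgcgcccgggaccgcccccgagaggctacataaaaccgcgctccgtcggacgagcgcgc
Btg2, chr1:134079156-134079405, minus strand: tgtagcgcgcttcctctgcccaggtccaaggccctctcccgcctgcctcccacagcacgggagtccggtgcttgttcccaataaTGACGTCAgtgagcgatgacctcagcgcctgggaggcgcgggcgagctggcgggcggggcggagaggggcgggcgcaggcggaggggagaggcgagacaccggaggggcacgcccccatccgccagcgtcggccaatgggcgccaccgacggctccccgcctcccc
In the Jun window TGACATCA lies at -45 to -38 and a MEF2 match at -33 to -24 from the start; TGACATCA occurs in 2.93% of 32851 promoter windows of this length and in 1 of the 8 early genes matched. The full CRE was found in Dusp1 (-143 to -136) and Btg2 (-166 to -159), 2 of 8, against 1.55% of all windows. TGACG alone occurred in 6 of 8 (Fos, Fosb, Junb, Atf3, Dusp1 and Btg2) and in 17.8% of all windows. Fos held the single TATAAA match among the 8, at -33 to -28 (12.4% of all windows), and the MEF2 match was in Jun and Atf3 (2.92%). CCAAT, left in lower case, was in 3 of 8 windows (Jun, Junb and Btg2) and in 33.8% of all. Neither the AP-1 element TGACTCA (4.46% of all windows) nor the CArG box bound by serum response factor (1.47%) was found in any of the 8, which says only that these letters are not in this stretch. The Jund window, which held none of the motifs searched, lies 1210 bases from the nearest coding-transcript start in GENCODE M21, against 0 to 35 bases for the other 7.

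Junb (ENSMUSG00000052837), a Jun relative that is often the weaker activator, had the second largest log2 fold change of the 9, and most of it rested on 1 library. Its level was 8.09, 36.0, 7.11, 8.40 and 11.2 CPM in the knockouts and 6.21, 8.25, 8.49, 10.1 and 6.41 CPM in the wild types. Apart from knockout 29, which held 4.13 times the mean of the other knockouts, the groups overlapped almost entirely. The means of 14.2 ± 12.3 and 7.89 ± 1.61 CPM gave a log2 fold change of 0.85 (SE 0.43, edgeR adjusted p = 0.421). Without knockout 29 this was 0.18, a loss of 79.2% of the value.

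Jund (ENSMUSG00000071076), the Jun family member expressed most steadily across tissues, had 1 library far above the rest in each group. It stood at 49.9, 112, 38.8, 46.3 and 37.7 CPM in the knockouts and 38.3, 58.9, 32.2, 39.6 and 32.2 CPM in the wild types. These were knockout 29 and wild-type 24, and the remaining 8 lay between 32.2 and 49.9 CPM with the groups overlapping. The log2 fold change was 0.50 (SE 0.31, edgeR adjusted p = 0.489), and 0.13 without knockout 29, a loss of 73.9%.

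Fos (ENSMUSG00000021250), the dimer partner that supplies stimulus-dependent AP-1, was scarce. Knockouts held 2.19, 5.74, 2.67, 0.869 and 3.04 CPM and wild types 2.64, 3.005, 2.42, 3.17 and 2.68 CPM. Knockout 29 was the highest and knockout 49 the lowest of the 10; the latter value rests on 3 counts (95% Poisson interval 0.179 to 2.54 CPM, counting error only). The wild types stayed within 2.42 to 3.17 CPM, inside the range of the knockouts. Means of 2.90 ± 1.79 and 2.78 ± 0.302 CPM gave a log2 fold change of 0.10 (SE 0.36, 95% interval -0.69 to 0.89, edgeR adjusted p = 0.925), which became -0.24 without knockout 29 and 0.28 without knockout 49.

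Fosb (ENSMUSG00000003545), a Fos relative whose stable splice form accumulates with repeated stimulation, gave 64 counts over all 10 libraries and did not pass the low-count filter. Its level was 0.267, 0.629, 0.285, 0.290 and 0.245 CPM in the knockouts and 0.367, 0.160, 0.0693, 0.171 and 0.282 CPM in the wild types, from between 1 and 11 counts a library. Knockout 29 was highest and the groups overlapped. Counting intervals were wide, 0.272 to 1.24 CPM for knockout 29 and 0.183 to 0.657 CPM for the highest wild type, and a genotype difference was not detectable at this depth. In the fit without that filter, the log2 fold change of Fosb was 0.69 (SE 0.54, edgeR adjusted p = 0.639).

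Atf3 (ENSMUSG00000026628), a CREB/ATF family member that pairs with Jun and is a standard marker of injured sensory neurons, was the 1 tested gene for which knockout 29 was not the highest library. The knockouts held 1.81, 2.91, 2.85, 3.76 and 3.98 CPM and the wild types 1.97, 2.78, 1.70, 1.26 and 2.01 CPM. Here knockout 29 sat at 0.939 of the mean of the other knockouts, and 4 of the 5 knockouts lay above every wild type, knockout 16 being the exception. With 3.06 ± 0.864 against 1.94 ± 0.554 CPM, the log2 fold change was 0.64 (SE 0.30, 95% interval -0.01 to 1.28, edgeR adjusted p = 0.387). Wild-type 24 moved it most: without that library it was 0.85. The level in knockout 49 came from 13 counts.

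Egr1 (ENSMUSG00000038418), a zinc-finger transcription factor induced through serum response factor, was the other gene with groups that did not overlap. It reached 12.4, 30.6, 14.5, 12.2 and 13.8 CPM in the knockouts, and 11.1, 11.9, 8.70, 9.18 and 10.5 CPM in the wild types. The lowest knockout (knockout 49, from 42 counts) and the highest wild type (wild-type 24) were closer together than the counting error of the former (95% Poisson interval 8.76 to 16.4 CPM). The mean was 16.7 ± 7.84 against 10.3 ± 1.33 CPM. This gave a log2 fold change of 0.70 (SE 0.26, 95% interval 0.12 to 1.28, edgeR adjusted p = 0.299). Without knockout 29 it was 0.40, a loss of 42.9%. The 4 remaining knockouts had a mean of 13.2 ± 1.13 CPM, and their place above all wild types follows from that of the full group.

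Ier2 (ENSMUSG00000053560), a nuclear early response protein, followed Jun closely over the libraries (r = 0.95 for log2 CPM over 10 libraries and 0.86 over the 9 without knockout 29). The knockout libraries gave 19.8, 60.8, 19.8, 24.9 and 24.8 CPM and the wild types 20.5, 26.8, 13.6, 15.2 and 15.1 CPM. All 5 knockouts exceeded the wild-type median, but wild-type 24 lay above every knockout other than 29. The log2 fold change was 0.72 (SE 0.33, 95% interval -0.01 to 1.44, edgeR adjusted p = 0.383) and 0.32 without knockout 29.

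Dusp1 and Btg2 are feedback genes: Dusp1 (ENSMUSG00000024190) encodes a phosphatase that switches off MAP kinases, and Btg2 (ENSMUSG00000020423) an antiproliferative cofactor of mRNA deadenylation that p53 and differentiation signals induce. Dusp1 was at 30.1, 48.8, 18.4, 17.1 and 21.7 CPM in the knockouts and 22.1, 26.0, 24.7, 26.6 and 19.2 CPM in the wild types, so that 2 knockouts lay above all wild types and 2 below all of them. Its log2 fold change was 0.21 (SE 0.27, edgeR adjusted p = 0.758) and turned to -0.077 without knockout 29. For Btg2 the knockouts held 26.4, 37.4, 24.8, 35.9 and 24.8 CPM and the wild types 36.7, 31.9995, 14.7, 18.6 and 21.3 CPM. Here the wild types were the more scattered group, with wild types 22 and 24 among the knockouts and wild types 32, 35 and 45 below all of them. The log2 fold change of Btg2 was 0.27 (SE 0.25, edgeR adjusted p = 0.657), and leaving out wild-type 22 moved it most, to 0.46.

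Levels of different genes were compared as CPM per kilobase of annotated exon (GENCODE M21, which may differ from the annotation the authors counted with). This length joins the exons of all transcripts of a gene. For Dusp1 it was 3311 bases, against 1990 for the longest coding transcript, so the place of Dusp1 below depends on the length used. The knockout order by mean was Jun (40.5), Jund (34.1), Ier2 (19.7), Btg2 (10.9), Dusp1 (8.22), Junb (6.15), Egr1 (3.72), Atf3 (1.42), Fos (1.23) and Fosb (0.0549). In that order the ranges over libraries overlapped between all neighbours except Egr1 with Atf3 and Fos with Fosb. The wild-type order was Jund (24.1), Jun (18.6), Ier2 (12.0), Btg2 (8.99), Dusp1 (7.16), Junb (3.43), Egr1 (2.29), Fos (1.18), Atf3 (0.902) and Fosb (0.0336), and the ranges did not overlap between Dusp1 and Junb, Junb and Egr1, Egr1 and Fos, or Atf3 and Fosb. Each of the Jun family genes thus stood above Fos and Fosb per length in both genotypes, and Jun and Jund exchanged the top rank with ranges that overlapped.

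**Figure D2:**
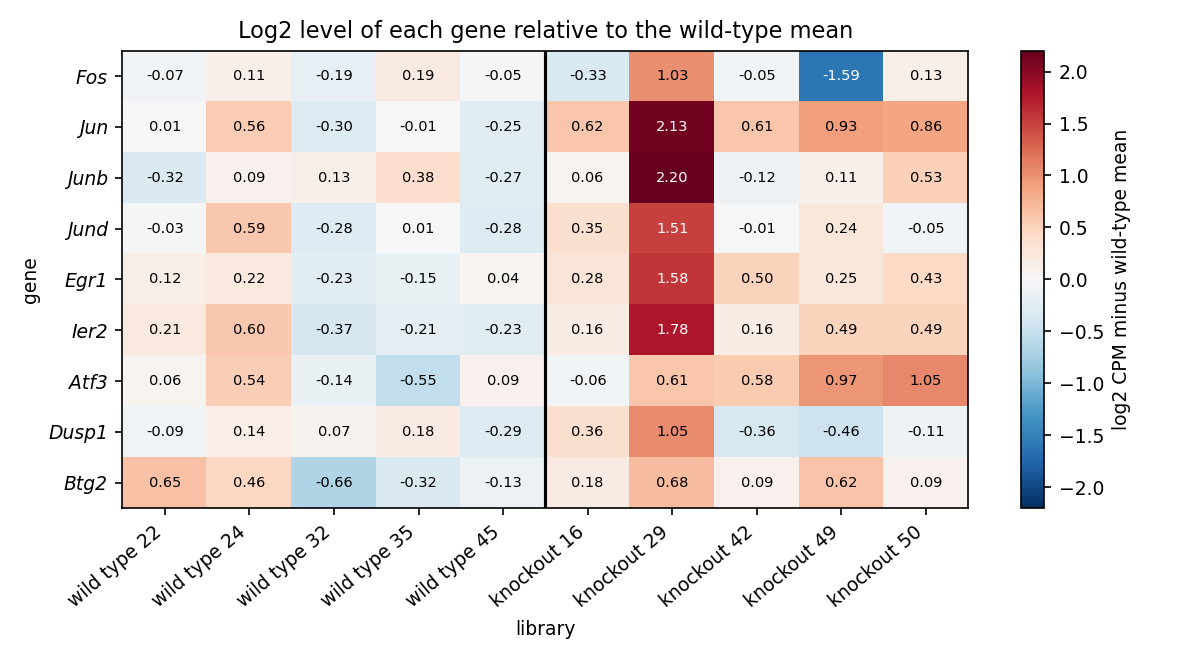
Log2 CPM of the 9 tested genes (rows) minus the wild-type mean of the gene, in each library (columns), with the values printed in the cells and red for higher, blue for lower. The column of knockout 29 reaches 2.201 for Junb and 2.13 for Jun, while Jun is the row with all 5 knockouts at 0.61 or more.

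Counted by library, knockout 29 was the highest of all 10 libraries for 8 of the 9 tested genes, against 20.9% of all tested genes, and its median over the 9 was 1.51 above the wild-type mean on the log2 scale. The other knockouts had medians of 0.18 (knockout 16), 0.091 (42), 0.25 (49) and 0.43 (50). Among the wild types, library 24 was above its group mean for 9 of 9 genes and the highest of its group for 5, with a median of 0.46, above that of each knockout other than 29. Wild types 32 and 45 had medians of -0.23 each, and wild-type 32 was the lowest of all 10 libraries for 4 of 9. These counts for wild types 24 and 32 were not made over all tested genes. The libraries' medians over the 9 genes thus overlapped between genotypes.

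Of all single omissions, knockout 29 was the library whose removal moved the log2 fold change most for 7 of 9 genes, as it was for 29.5% of all tested genes; wild-type 24 was that library for Atf3 (26.3% of all genes) and wild-type 22 for Btg2 (5.87%). The signs of Fos and Dusp1 turned without knockout 29, and no omission of 1 library turned the sign of any other tested gene. Without any 1 library, 0 of 9 genes passed the edgeR threshold, where 0.158% to 0.615% of all tested genes were called. At an unadjusted p under 0.05 there were 2 to 5 of 9. The share of all genes at that p was counted only with all libraries (13.1%). In these fits the lowest edgeR adjusted p of an early gene was 0.0934, for Jun without wild-type 24, and the highest value for Jun was 0.359, without wild-type 35.

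**Figure D3:**
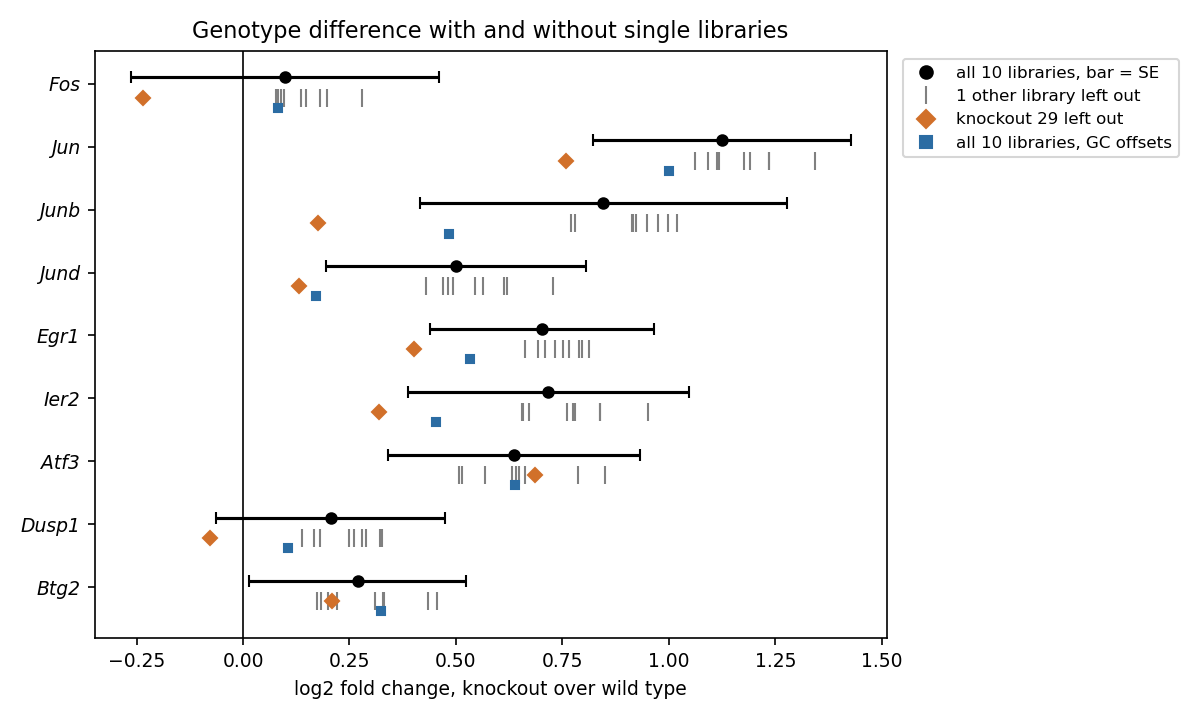
Log2 fold change, knockout over wild type (horizontal axis), of the 9 tested genes with all 10 libraries (black, bar = SE), with knockout 29 left out (orange), with each other library left out (grey ticks) and after an offset for GC content (blue). Junb goes from 0.85 to 0.18 and Jund from 0.50 to 0.13 without knockout 29, Jun from 1.12 to 0.76, and Atf3 shows no such drop (0.64 and 0.69).

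The genes differed in base composition, and the libraries differed in how gene levels followed it. The longest coding transcript had a GC content of 67.1% for Jund, 62.6% for Junb, 60.9% for Ier2, 57.3% for Egr1, 56.0% for Fosb, 55.5% for Jun, 54.9% for Dusp1, 52.2% for Atf3, 51.9% for Fos and 49.7% for Btg2, where the median of tested genes was 49.8%. Jun, Junb, Jund and Ier2 have a single exon. In knockout 29 the median log2 deviation from the knockout mean was -0.80 for genes under 40% GC, higher in each further class, and 0.58 at 60% and over. Against genes of their own GC class, the deviations of Fos, Jun, Junb, Jund, Egr1, Ier2 and Dusp1 in knockout 29 were at percentiles 89.7 to 97.9, that of Btg2 at 87.9 and that of Atf3 at 35.7. After offsets that removed each library's smooth trend with GC, the log2 fold change of Jun was 1.00 (edgeR adjusted p = 0.0986) and the median over the 9 genes was 0.45, with 9 of 9 above 0. Junb went from 0.85 to 0.48 and Jund from 0.50 to 0.17. These offsets were chosen after seeing the data.

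**Figure D4:**
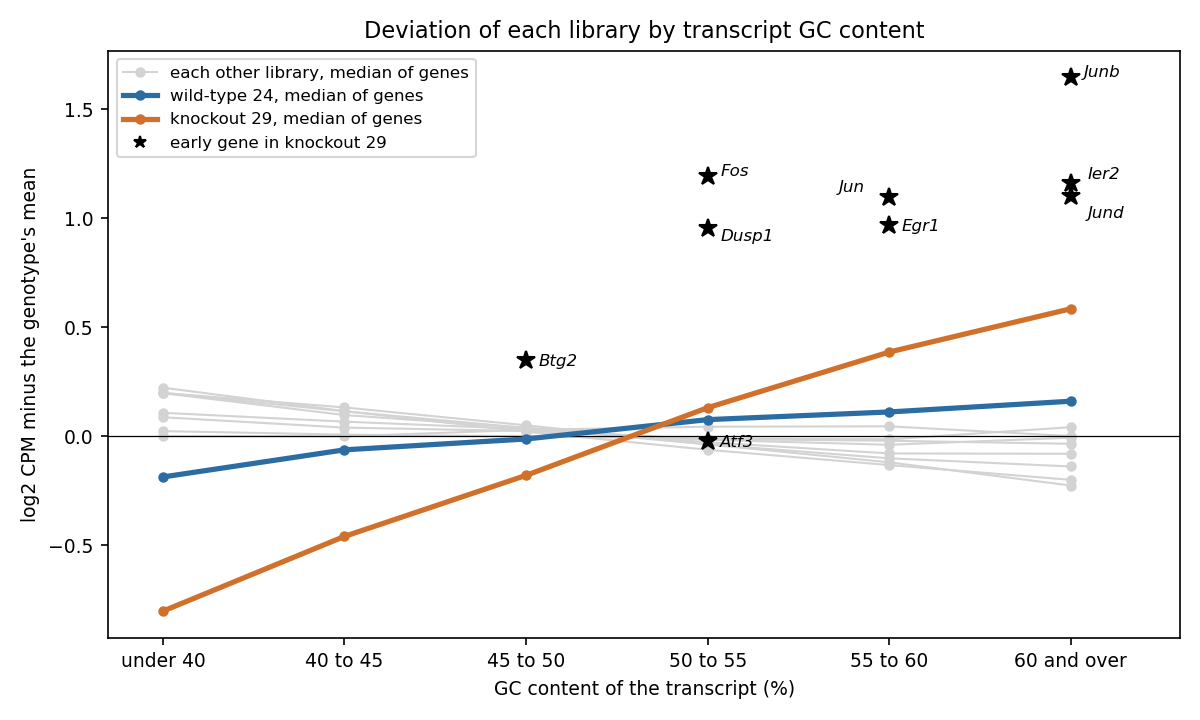
Log2 CPM minus the mean of the library's genotype (vertical axis) by class of transcript GC content in percent (horizontal axis): lines join the median over genes in knockout 29 (orange), wild-type 24 (blue) and each other library (grey), and stars are early genes in knockout 29. The orange line runs from -0.80 to 0.58, and all stars but Atf3 lie above it.

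Pairs of early genes were compared over the libraries as a description, without a test. Over 10 libraries the 36 pairs among the 9 tested genes had a median r of 0.62 for log2 CPM, and 33 were positive. Over the 9 libraries without knockout 29 the median was 0.29 with 23 positive, and over the 8 without wild-type 24 as well it was 0.20. Jun with Egr1 kept a high value (0.93, 0.83 and 0.83 in these 3 sets), as did Jun with Ier2. Junb with Egr1 went from 0.83 to -0.0037 on leaving out knockout 29. The lowest pair was Fos with Atf3, at -0.19 over 10 libraries. Both genes of a pair were read from the same libraries, so each library's depth and scaling factor enter both values. All of the tested early genes except Btg2 also had a transcript GC content above the median of tested genes (49.8%).

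The genes outside the set whose pattern over the 10 libraries was most like that of Jun, among 12473 tested genes with a mean of at least 5 CPM, were Fbxw4 (r = 0.976), Gas2l1 (0.964), Nr2f6 (0.963), Nectin2 (0.958) and Plbd2 (0.958). Without knockout 29 these values were between 0.889 and 0.942. None passed the threshold between genotypes (log2 fold changes 0.42 to 0.71, edgeR adjusted p 0.261 to 0.310), and their transcripts had a GC content of 58.0% to 67.3%. With each genotype's mean removed, the average profile of the 9 early genes was most like Tlnrd1 (0.981), Cactin (0.979), Ppp5c (0.977), Twf2 (0.977) and Psmd3 (0.976). Tlnrd1 shows the shared shape: 63.1, 170.03, 66.7, 63.4 and 78.2 CPM in the knockouts and 62.2, 96.6, 55.2, 61.4 and 52.0 CPM in the wild types, with knockout 29 and wild-type 24 the highest of their groups. Transcripts of these 5 had 54.8% to 61.4% GC.

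A wider list of rapid response genes, which holds the Egr, Nr4a, Klf and Dusp families with Arc, Npas4, Zfp36, Myc and others, was measured beside the early genes. Of 35 genes 34 were tested and 0 passed the edgeR threshold in either direction. At an unadjusted p under 0.05 there were 9 with a higher knockout mean and 1 with a lower one. Over all tested genes 6.4% were higher at that p and 13.1% differed in either direction. The log2 fold change was above 0 for 29 of 34, with a median of 0.40, and without knockout 29 for 27 of 34, with a median of 0.33. DESeq2 called 2 of them higher (Dusp2 and Vgf) and limma voom with quality weights 8, while these tools called 3.47% and 13.0% of all genes. Knockout 29 was the highest library for 19 of the 35, against 20.9% of all tested genes. The summed level was 1695 CPM in knockout 29, 1005 to 1183 CPM in the other knockouts and 801 to 1210 CPM in the wild types.

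Vgf, which encodes a secreted neuropeptide precursor induced by neurotrophins, had the largest log2 fold change of that list, 1.43 (SE 0.44, edgeR adjusted p = 0.212). It stood at 54.5, 248, 57.1, 51.3 and 75.6 CPM in the knockouts and 26.9, 31.8, 41.4, 51.9 and 28.4 CPM in the wild types, so that wild-type 35 lay just above the lowest knockout. Dusp2, a nuclear MAP kinase phosphatase, followed with 1.39 (SE 0.41, edgeR adjusted p = 0.192). Its levels were 2.67, 4.09, 2.92, 1.45 and 5.35 CPM in the knockouts and 1.53, 1.60, 0.520, 0.888 and 1.87 CPM in the wild types; knockout 49 lay among the wild types and knockout 50, not 29, was the highest.

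A list of other AP-1 and related bZIP genes (Fosl1, Fosl2, the Batf and small Maf genes, Atf2, Atf7 and Jdp2) had a smaller median log2 fold change than the early genes with all libraries. Without knockout 29 the medians were close, 0.19 for this list and 0.21 for the early genes. Without wild-type 24 as well they were 0.32 and 0.34. Its largest values lay within the range of the early genes. Of 11, 9 were tested and 0 passed the edgeR threshold, with 0 at an unadjusted p under 0.05. Log2 fold changes were above 0 for 8 of 9, at a median of 0.14. DESeq2 called 0 (3.47% of all genes) and limma voom with quality weights called 1, Batf (13.0% of all genes). The largest values were Batf with 0.54 (SE 0.71, edgeR adjusted p = 0.760) and Mafk with 0.48 (SE 0.25, adjusted p = 0.443). Batf, a partner of Jun in leukocytes, ranged from 0.579 to 1.49 CPM in the knockouts and from 0.0693 to 2.49 CPM in the wild types, where libraries 32 and 35 were the lowest. Mafk, a small Maf protein without an activation domain, was highest in knockout 29 (17.8 CPM), with 7.40 to 12.2 CPM in the other knockouts and 6.44 to 9.21 CPM in the wild types.

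Upstream of the early genes, 17 kinases and factors that carry signals to them (serum response factor and its Elk and myocardin-related partners, CREB, and the ERK, JNK and p38 kinases) had 0 called by edgeR, 2 at an unadjusted p under 0.05 (both lower in the knockout), a median log2 fold change of -0.01 and 0 called by DESeq2. The voom fit called 3 of these as lower: Creb1, Mapk8 and Map3k12. Among genes of the axon injury response, such as Sprr1a, Sox11 and Gap43, 11 of 13 were tested and 0 called by edgeR, at a median of 0.07. At an unadjusted p under 0.05 in edgeR there were 3 higher and 1 lower in the knockout. DESeq2 called 2 as higher (Ecel1 and Npy), and voom called 3 as higher and 2 as lower. Among heat shock and unfolded protein response genes 0 of 12 were called by edgeR, with 2 at an unadjusted p under 0.05, both lower, and a median of -0.13; DESeq2 called 0 of these and voom 4. Over all tested genes, 13.1% had an unadjusted p under 0.05 in edgeR, and DESeq2 called 3.47% and voom 13.0%. The median of the 9 early genes was 0.64, and no list was tested against another. Without knockout 29 the median was 0.21 for the early genes and -0.037 for the upstream list. It was then 0.19 for the axon injury list and -0.16 for the heat shock and unfolded protein list.

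**Figure D5:**
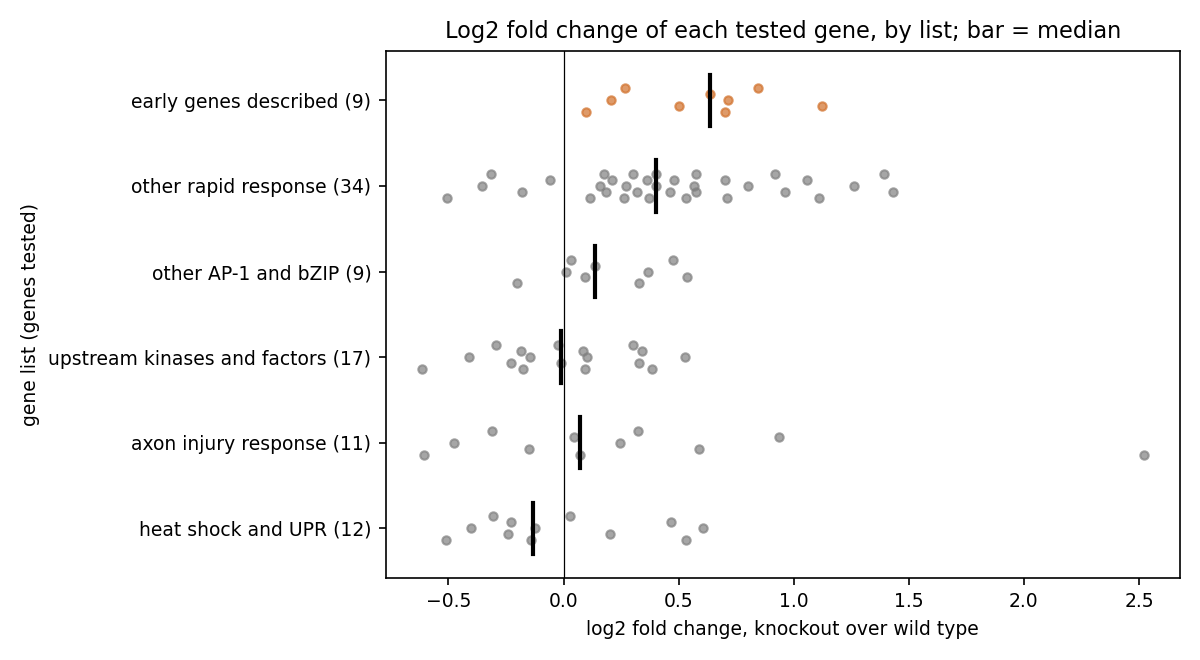
Log2 fold change, knockout over wild type (horizontal axis), of each tested gene in the early gene set (orange) and in 5 lists of related genes (grey), with the list's median as a bar. Medians with all libraries are 0.64 for the early genes, 0.40 for other rapid response genes, 0.14 for other AP-1 and bZIP genes and -0.13 to 0.07 for the other 3. Without knockout 29 (not drawn) the first of these are 0.21 for the early genes, 0.33 for other rapid response genes and 0.19 for other AP-1 and bZIP genes.

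Markers of several cell types were high in knockout 29 or had fitted differences between genotypes, and their part in the early gene levels was not tested. Of the erythroid, glia, endothelial, macrophage and mesenchyme lists, edgeR called 0 markers with all libraries. Over all tested genes, edgeR called 0.467%, DESeq2 3.47% and voom 13.0%. An unadjusted p under 0.05 in edgeR was found for 13.1% of all tested genes (6.4% higher in the knockout). Knockout 29 was the highest library for 20.9% of them. Erythroid markers summed to 3680 CPM in knockout 29, 1113 to 1960 CPM in the other knockouts and 612 to 2192 CPM in the wild types, with 8 of 10 highest in knockout 29. Their median log2 fold change was 0.64 (1 of 10 at an unadjusted p under 0.05, DESeq2 0 and voom 3 called), 0.31 without knockout 29 and 0.28 without wild types 32 and 35. Glia markers summed to 5204 CPM there, of which Sox10 alone gave 3764 CPM, with 1421 to 2014 CPM in the other knockouts and 1384 to 2601 CPM in the wild types; 5 of 9 were highest in knockout 29. The glia median was 0.23 (2 of 9 at an unadjusted p under 0.05, both lower, with 0 called by DESeq2 and by voom) and -0.066 without knockout 29. Endothelial markers had 10 of 10 log2 fold changes above 0 (median 1.11, 9 at an unadjusted p under 0.05, 6 called by DESeq2 and 8 by voom), with sums of 479 to 1200 CPM in the knockouts and 261 to 593 CPM in the wild types. Macrophage markers summed to 214 to 390 CPM in the knockouts and 65.0 to 326 CPM in the wild types, and mesenchyme markers to 3672 to 12810 CPM and 1037 to 7270 CPM, with wild types 32 and 35 the lowest libraries in both. The macrophage median was 0.72 (12 of 12 above 0, 3 at an unadjusted p under 0.05, DESeq2 0 and voom 12 called) and 0.33 without wild types 32 and 35. The mesenchyme median was 0.55 (7 of 10 above 0, 0 at an unadjusted p under 0.05, DESeq2 0 and voom 2 called) and -0.0088 without those libraries, with 5 of 10 above 0. No marker of these 5 lists was at 0 in all libraries. Sensory neuron markers had sums of 5933 to 14946 CPM in the knockouts and 8519 to 15826 CPM in the wild types. Nefm alone had a mean of 2594 CPM in the knockouts and 2824 CPM in the wild types. A few abundant genes thus set the sums, which do not by themselves identify the tissue. Of these 11 markers 1 had a log2 fold change above 0 and the median was -0.52, with 6 at an unadjusted p under 0.05, all lower in the knockout. As lower, edgeR called 1, DESeq2 2 and voom 5. Without wild types 32 and 35 the median was -0.15 with 5 of 11 above 0. Knockout 29 was the highest library for 3 of the 11.

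Wild types 32 and 35 had the lowest sums of several marker lists, and the early genes were fitted without them as well. Without both, the log2 fold change of Jun was 1.06 and that of Egr1 0.63, and the median over the 9 genes was 0.47 with 9 of 9 above 0, while the edgeR adjusted p of Jun went to 0.638 and 0.102% of all tested genes were called. Over all 21 alternatives to the fit, the log2 fold change of Jun lay between 0.67 and 1.34 and that of Egr1 between 0.40 and 0.81.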

How the data were processed

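RNA sequencing covered 10 libraries of trigeminal ganglia, 5 per genotype. Each deposited file lists the authors' raw counts by Ensembl gene ID. The tools named per the submitters' processing notes are featureCounts 1.5.0-p1, STAR 2.7.10a and bcl2fastq 2.20.0.422; 2 builds, mm10 and GRCm39, are named with no role. For annotation release, strand setting and multiply mapped reads, the settings were not given in the sources used here. Overlapping or antisense genes may share reads that cannot be told apart.

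From these counts, genes were filtered with filterByExpr (minimum count 10), scaled with TMM factors and compared with edgeR 4.0.16 (glmQLFit, glmQLFTest; R 4.3.3), with Benjamini-Hochberg adjustment over all tested genes and a threshold of 0.05. The SE of a log2 fold change was its size divided by the square root of F. CPM are TMM-scaled, log2 CPM used a prior count of 2, and intervals of single values are exact Poisson. Symbols matched 52081 IDs. The fits were tested on simulated data first. No replicate number occurs in both genotypes, so samples were not paired.

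Named genes were the 10 early genes, Prdm12, list members past the threshold or, failing that, the 2 with the largest change in the rapid response and bZIP lists, and the 5 genes most correlated with Jun and with the genotype-centred mean of the early genes. Of these, 1 list member past the threshold is not reported here. The early genes and all lists were chosen with earlier results of these data known. Lists of epithelium, central nervous system and muscle markers were also measured. In these lists 0 genes were called, with medians of 1.61, 1.41 and -0.64. Single libraries stood out in the sums. Epithelium markers summed to 354 CPM in knockout 49, 24.2 to 81.6 CPM in the other knockouts and 10.0 to 75.0 CPM in the wild types. Central nervous system markers summed to 158 CPM in knockout 16, 3.06 to 33.6 CPM in the other knockouts and 0.751 to 54.2 CPM in the wild types.

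Alternatives were RLE and upper-quartile factors, library totals alone, no filter, a minimum count of 50, DESeq2 1.42.0, limma 3.58.1 voom with sample quality weights, each library left out, and wild types 32 and 35 or knockouts 29 and 49 left out. Chosen after seeing the data were leaving out knockout 29 with wild-type 24, and GC offsets (a lowess curve of span 0.3 on the GC content of the longest coding transcript in GENCODE M21, known for 17947 of 18005 genes).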

Additional observations from a re-analysis of the deposited data

Results flagged for a closer look

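Each gene's 5 values per genotype were examined for a library far from the other 4. For 5 independent values from a normal distribution, chance alone marks about 1 of 20 groups. The genes share the same libraries, so the groups examined here were not independent. Of 20 groups 7 were marked, 6 of them by the same library. Knockout 29 stood apart for Jun at 253 CPM (the other knockouts 88.4 to 110.03), for Junb at 36.0 CPM (7.11 to 11.2), for Jund at 112 CPM (37.7 to 49.9), for Egr1 at 30.6 CPM (12.2 to 14.5), for Ier2 at 60.8 CPM (19.8 to 24.9) and for Fosb at 0.629 CPM (0.245 to 0.290), the last from 8 counts. Wild-type 24 stood apart for Jund at 58.9 CPM (the other wild types 32.2 to 39.6). Over all tested genes knockout 29 stood apart above its group in 8.63% and wild-type 24 in 6.14%, against 5 of 9 and 1 of 9 tested early genes.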

How the results depend on the processing

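No early gene passed the threshold in the edgeR fits with other scaling factors, other filters, GC offsets or any 1 library left out; DESeq2 called 1 (Jun), voom with quality weights 3 (Jun, Egr1, Atf3), and edgeR without knockout 29 and wild-type 24 called 1 (Jun). Over all genes 84 were called; the number was 157 with no filter, 624 with DESeq2 (388 higher, against 17 of 84), 2344 with voom, 19 without wild types 32 and 35, 53 without knockouts 29 and 49, 225 without knockout 29 and wild-type 24, and 29 (without wild-type 35) to 113 (without wild-type 24) with 1 library left out; it was below 84 by over 1.5 times without knockout 42, 49 or 50 or wild-type 22, 32 or 35. The median log2 fold change of the early genes, 0.64, was 0.21 (without knockout 29) to 0.81 (without wild-type 24) on leaving out 1 library, and 0.16 without knockouts 29 and 49. Fos turned to -0.16 with voom, -0.080 without knockouts 29 and 49 and -0.17 without knockout 29 and wild-type 24, and spanned -0.24 to 0.28 with 1 library left out. Dusp1 turned to -0.12, -0.017 and -0.014 in the same 3 fits and spanned -0.077 to 0.33. The other 7 tested genes kept their sign in all 21 alternatives. The cause of these shifts was not tested, other than that fewer libraries entered some fits. Depth limited Fosb in all libraries, and Fos, Atf3 and Junb in knockout 49. No paired analysis was possible because the genotypes share no replicate number.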
